A study of Apis mellifera with 13 samples.

Results

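Whole genome bisulfite sequencing of honey bee abdomens gave a list of genome regions that are candidates for a methylation difference. The list compares bees fed curcumin and ethanol with bees fed ethanol alone. Described here are the 2213 short regions, of 2 to 9 CpGs each, that appeared in that list but shared no bp with any region listed for ethanol against control. They were selected on the measured values themselves: a region had to be listed in the first comparison and to miss every region of the second. Being listed does not mean that a region was significant. In the paper, every region significant for curcumin and ethanol against ethanol overlapped one significant for ethanol against control. None of those regions is described here. The 2213 regions made up 22.8% of the 9689 entries in the list of curcumin and ethanol against ethanol, and 38.0% of the 5820 entries of 2 to 9 CpGs. The other 3607 short regions overlapped 1 or more of the 8887 regions listed for ethanol against control.

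The bees were winter workers of the carnica strain of Apis mellifera, taken from donor hives and kept in cages for 10 days on their diet. Libraries were made from 3 bees whose diet held both curcumin, at 100 µg/ml, and ethanol, at 1% v/v, from 5 bees given the same dose of ethanol alone and from 5 control bees that received neither. Cages C and D held 1 and 2 of the curcumin and ethanol bees, cages A and B held 2 and 3 of the ethanol bees, and cages AG and BG held 2 and 3 of the control bees, so that diet and cage cannot be told apart. The tissue was the abdominal carcass with the fat body attached, after gut and stinger had been removed, and it holds several cell types, so that a shift in their mix and a shift within cells cannot be told apart. The tables hold nothing that checks the tissue.

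In the honey bee, as in other insects, DNA methylation is sparse. It is found mostly at CpGs inside gene bodies, particularly exons, of broadly expressed genes, while most other CpGs are unmethylated. A CpG is methylated or not on each DNA molecule, so that the level of a CpG in a tissue is the fraction of molecules that carry the mark. Methylation of bees has been studied for its part in caste development, ageing and alternative splicing. Curcumin is a polyphenol of turmeric. Neighbouring CpGs often have similar levels, and for that reason differences are sought over runs of CpGs, which are called regions.

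Only CpGs with some methylation in several bees entered the comparison, and these CpGs lay in clusters, separated from each other by stretches without any. The clusters that held the 2213 regions had 7 to 130 such CpGs, with a median of 21. Per region, the tables give the difference in methylation summed over its CpGs, and this sum divided by the number of CpGs is called here the difference per CpG. It is curcumin and ethanol bees minus ethanol bees, so that a positive value stands for a higher level in curcumin and ethanol bees. The scale is taken from the methods to be that of arcsine transformed methylation, and the values are therefore not percentage points. The tables hold 1 value per comparison and none for a single bee. No spread between bees, no depth and no interval can be given for any region, and all values below are a description with no test.

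A higher level in curcumin and ethanol bees than in ethanol bees was found in 1041 of the 2213 regions, and a lower level in 1172. The share that was higher, 47.0%, is close to the 48.4% of the whole table from which the regions were chosen. Among the 3607 overlapping short regions 49.2% were higher. The higher regions held 3705 CpGs and the lower regions 4121 CpGs, together 7826 CpGs over 576134 bp.

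The absolute difference per CpG had a median of 0.167, with quartiles of 0.126 and 0.224, and it ran from 0.000916 to 0.562. Regions that were higher had a median difference of 0.166 and regions that were lower one of -0.169, so that both directions were of similar size. The overlapping short regions had a larger median of 0.197. It was 0.214 in the 793 of these with the same bounds in both tables, and 0.193 in the 2814 whose bounds were shifted. The 1745 short regions listed for ethanol against control only, which are the mirror image of the regions described here, had a median of 0.154 in their own comparison. That comparison had 5 against 5 bees, and the one described here 3 against 5. Over all listed regions the median was 0.171 for ethanol against control and 0.185 for curcumin and ethanol against ethanol.

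**Figure D1:**
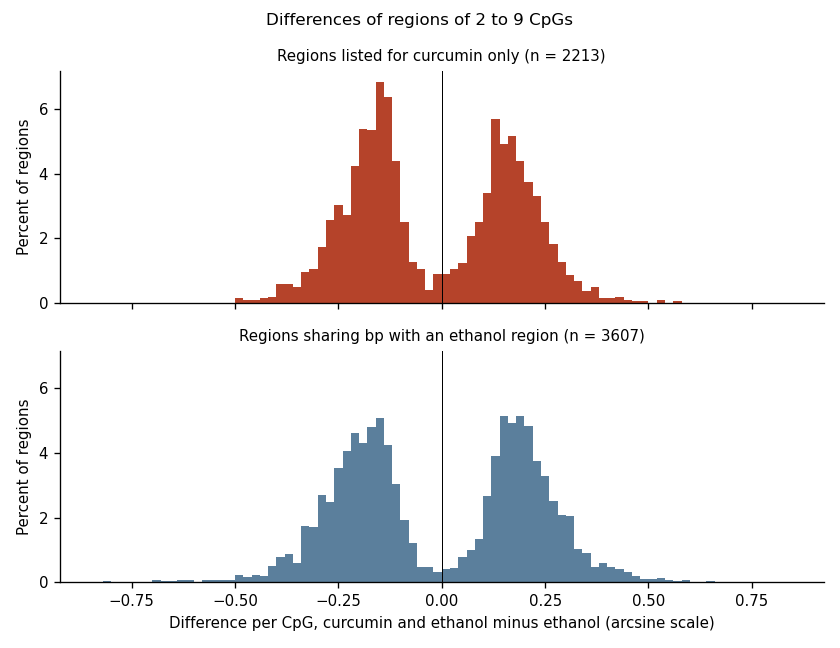
Difference per CpG (horizontal axis, arcsine scale, curcumin and ethanol minus ethanol) of the 2213 short regions listed for curcumin only (top) and of the 3607 short regions that share bp with an ethanol region (bottom), as percent of the regions of each panel in bins of 0.02. Both panels have a peak on either side of zero, and the top panel is narrower, with a median absolute difference of 0.167 against 0.197.

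Few values lay near zero, which follows from how the table was made: it lists no region whose smoothed difference was under 0.1 in size. A difference per CpG under 0.1 was nevertheless found in 306 regions (13.8%), as smoothing and summing do not give the same value. At the other end, 165 regions (7.46%) reached a difference of 0.3 per CpG, against 13.6% of the whole table and 526 (14.6%) of the overlapping short regions. Of these 165, 70 were higher and 95 were lower in curcumin and ethanol bees, 108 had 2 or 3 CpGs, and in 146 all CpGs differed in the same direction. A difference of 0.4 was reached by 28 regions (1.27%), 14 higher and 14 lower, against 4.11% of the whole table and 137 (3.80%) of the overlapping short regions. Like the medians, these shares are tied to how the regions were chosen.

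The regions are named below by their position in the honey bee assembly Amel 4.5, as listed in the deposited tables. Whether these positions count from 0 or from 1 is not stated. The assembly and its gene models were not used here, and for this reason genes, exons and sequences under the regions are not given.

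The 5 largest positive differences per CpG were found in regions of 2 to 5 CpGs, each on a different linkage group or scaffold. The 2 CpGs on linkage group 2 from 2389720 to 2389724, a width of 4 bp in a cluster of 27, had a difference of 0.562 per CpG. Neither was individually significant. On the unplaced scaffold GroupUn6, a region of 5 CpGs from 182904 to 184356 had a difference of 0.534 per CpG, with all 5 CpGs higher in curcumin and ethanol bees. On linkage group 11, 3 of the 7 CpGs of a small cluster (14592058 to 14592349) had a difference of 0.523 per CpG. These 3 CpGs were all higher, and individually significant CpGs carried 45.0% of the sum. The region of 3 CpGs on linkage group 14 from 10231379 to 10231544 had a difference of 0.494 per CpG. On linkage group 9, from 6541351 to 6541369, the 2 CpGs had differences of 0.461 and 0.486, and only the smaller of them was individually significant.

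The 5 largest negative differences were of the same order. On linkage group 12 the 2 CpGs of the region from 9834140 to 9834274 had a difference of -0.496 per CpG, and neither was individually significant. A region of 2 CpGs on the unplaced scaffold GroupUn126, from 1266 to 2022, had a difference of -0.487 per CpG. It was unequal within the region, as the individually significant CpG differed by 0.853 and the other by 0.122 in size. On linkage group 7, the 3 CpGs from 2195419 to 2195628 belong to a cluster of 7 and had a difference of -0.484 per CpG. All 3 were individually significant. Both remaining regions had 2 CpGs, 1 of them individually significant: linkage group 1 from 26695564 to 26695792, at -0.466 per CpG, and linkage group 11 from 14469642 to 14470132, at -0.463 per CpG. In the linkage group 1 region the significant CpG differed by 0.585 and the other by 0.347 in size, and in the linkage group 11 region by 0.787 and 0.139.

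Ranked by the summed difference, longer regions came first. The largest sum in favour of curcumin and ethanol bees was 3.21, in a region of 9 CpGs on linkage group 1 from 26640466 to 26641556, in which none of the CpGs was individually significant. Its CpGs did not all differ in one direction, and 4.93% of the absolute sum ran the other way. A region of 8 CpGs on linkage group 8 (2005050 to 2005635) had a sum of 2.74 with all CpGs higher in curcumin and ethanol bees. The region on GroupUn6 named above had a sum of 2.67. Linkage group 15 followed with 2.63 for 8 CpGs (3463905 to 3465289), and linkage group 14 with 2.43 for 9 CpGs (4661451 to 4662275). In both a small part of the absolute sum, 3.00% and 9.20%, ran the other way.

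The most negative sum was -3.30, again in a region of 9 CpGs on linkage group 1, from 26662472 to 26663175. Individually significant CpGs carried 27.2% of its absolute sum. On linkage group 15, 7 CpGs from 3771402 to 3772010 were all lower in curcumin and ethanol bees, with a sum of -2.84 and a difference of -0.405 per CpG. The 7 CpGs on linkage group 16 from 1551624 to 1552544 were all lower too, with a sum of -2.63, and so were the 7 CpGs on GroupUn43 from 114482 to 114567, with -2.56. The sum was -2.45 for 9 CpGs on linkage group 4 (3513673 to 3513955). Among regions of 6 to 9 CpGs, those with the next largest negative differences per CpG had 6 CpGs each and lay on linkage group 13 (8286114 to 8286207) and linkage group 10 (11400929 to 11401215), both at -0.397 per CpG. Of the regions named so far, 3 came from a stretch of 55326 bp on linkage group 1, each in a cluster of its own, and they differed in direction: 1 was higher and 2 were lower in curcumin and ethanol bees.

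Most of the regions were very short. A total of 856 had 2 CpGs, 500 had 3, 327 had 4 and 206 had 5, followed by 139, 83, 57 and 45 with 6, 7, 8 and 9 CpGs. Those of 2 or 3 CpGs accounted for 61.3%. In length they ran from 3 to 2070 bp with a median of 177 bp, and 46 were wider than 1000 bp. The overlapping short regions were longer, with a median of 298 bp, and less dense. Of CpGs that entered the comparison they held a median of 12.5 per kb, against 19.2 in the regions listed for curcumin only. A region of fewer bp is less likely to share any with another, so that this contrast is tied to how the regions were chosen. A region took up a median of 15.0% of the CpGs of its cluster, from 1.54% to 100%, and 4 regions filled their cluster entirely.

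**Figure D2:**
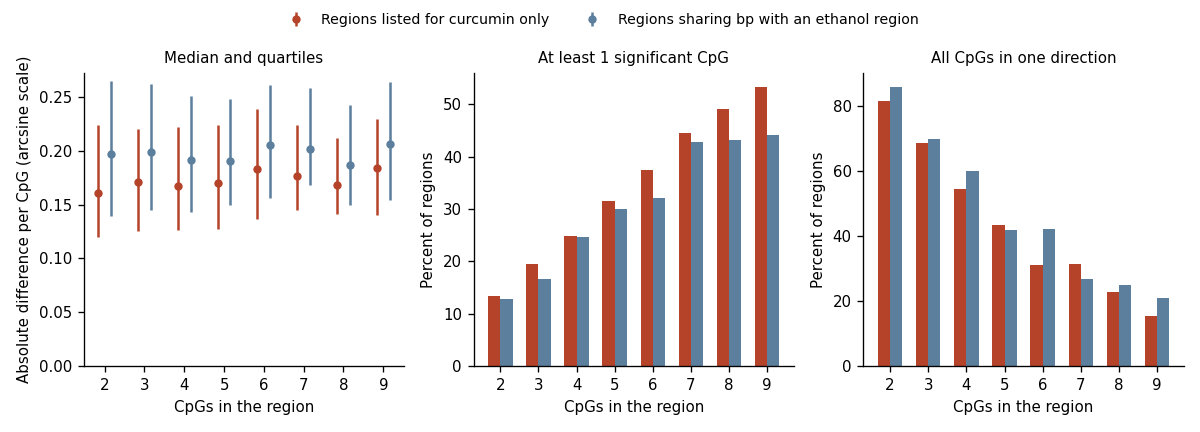
Regions by number of CpGs (horizontal axes), with those listed for curcumin only in red on the left of each pair and those sharing bp with an ethanol region in blue on the right. The panels show the median absolute difference per CpG with its quartiles as bars (arcsine scale), the percent of regions with at least 1 individually significant CpG and the percent whose CpGs all differ in one direction. The red medians stay between 0.161 and 0.184 at every number of CpGs, and each lies below its blue counterpart.

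The difference per CpG changed little with the number of CpGs. Its median was 0.161, 0.171, 0.168 and 0.170 in regions of 2, 3, 4 and 5 CpGs, and 0.183, 0.177, 0.168 and 0.184 in those of 6, 7, 8 and 9. In the overlapping short regions the medians were 0.197, 0.199, 0.191 and 0.191 for 2 to 5 CpGs, and 0.205, 0.201, 0.187 and 0.206 for 6 to 9. Each was above that of the regions listed for curcumin only, a contrast tied to the choice of regions as said above. The quartiles of both sets overlapped at every number of CpGs. The share that was higher in curcumin and ethanol bees lay between 43.2% (6 CpGs) and 48.2% (7 CpGs), except for the 57 regions of 8 CpGs, where it was 61.4%.

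The deposited tables also give the part of each sum that comes from CpGs found significant one by one, a mark whose threshold is not stated. At least 1 such CpG was present in 499 of the 2213 regions (22.5%), against 17.8% of all regions in the table, and none in the other 1714. The whole table includes regions of a single CpG, which have fewer chances to hold one. The overlapping short regions, with the same range of CpGs, were at 22.5%, and at 20.8% when weighted to the numbers of CpGs of the regions listed for curcumin only. The mark appeared to belong to each comparison, since of 1018 single CpGs listed in both tables it was set on 50 in the table of curcumin and ethanol against ethanol and on 42 in that of ethanol against control, with 6 in common.

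The share of regions with at least 1 individually significant CpG rose with the number of CpGs. More CpGs give more chances to hold such a CpG. The share was 13.3% in regions of 2 CpGs, 24.8% in those of 4, 37.4% in those of 6 and 53.3% in those of 9. In the overlapping short regions with the same numbers it was 12.8%, 24.7%, 32.0% and 44.0%. Of the 499 regions, 237 were higher and 262 lower in curcumin and ethanol bees. Where such CpGs were present, they carried a median of 47.5% of the absolute sum (quartiles 33.6 and 67.5%). In 9 regions a significant CpG differed against the direction of its region. The median absolute difference per CpG was 0.180 with such CpGs and 0.165 without, and of the 165 regions that reached 0.3 per CpG, 52 (31.5%) held any.

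Regions of 2 CpGs show single CpGs directly. In 110 of them exactly 1 CpG was individually significant, and its difference had a median size of 0.293, against 0.113 for its neighbour. The significant CpG was the larger in 98 of the 110. The mark comes from a test of the same difference, so that a larger size follows in part from the mark itself. The same holds for the medians with and without such CpGs given above.

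All CpGs were individually significant in 5 of the 2213 regions (0.226%), a share close to that of the overlapping short regions, with 8 of 3607 (0.222%). It was 2.08% in the whole table, in which single CpGs are counted too. The 5 are named here after their values were seen. The 3 CpGs on linkage group 7 are described above. The others had 2 CpGs each and lay on GroupUn134 (1420 to 1755, -0.434 per CpG), linkage group 6 (15827490 to 15827516, -0.279 per CpG), GroupUn104 (81133 to 81156, -0.185 per CpG) and linkage group 1 (17626513 to 17626552, 0.140 per CpG). Of the 5, 4 were lower in curcumin and ethanol bees. No region of 4 or more CpGs was significant throughout.

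In 1397 of the 2213 regions (63.1%) every CpG differed in the same direction, and in 816 at least 1 CpG ran against the rest. The overlapping short regions were at 62.7%, or 66.4% at the same numbers of CpGs. Agreement became rarer in longer regions, from 81.5% with 2 CpGs to 54.4% with 4, 30.9% with 6 and 15.6% with 9. In the overlapping short regions these shares were 85.8%, 60.0%, 42.3% and 21.1%. More CpGs also give more chances that 1 of them runs against the rest. The part that ran against the region was usually small. Its median was 11.2% of the absolute sum, and in 151 regions it exceeded 25%, up to 49.7%. In the 158 regions of 2 CpGs with opposite directions, the larger CpG had a median size of 0.276 and the smaller one of 0.0481. The median absolute difference per CpG was 0.138 in mixed regions and 0.189 in those of one direction. Opposite differences cancel in the sum, so that a lower value in mixed regions is built into this measure.

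The tables hold a second measure for each region, a mean difference that departs from the sum over CpGs and is taken to be smoothed over neighbouring CpGs. Its median size in the 2213 regions was 0.144, below that of the difference per CpG. It was the larger of both in 858 regions, and in 97 it was under 0.5 times as large. Dense regions were among those 97. At the 2 CpGs of linkage group 2 with the largest difference, 0.562 per CpG, the smoothed value was 0.118, and at the 6 CpGs on linkage group 13 (-0.397 per CpG) it was -0.105. The sign differed between both measures in 51 regions (2.30%), of which 39 were mixed, and their median absolute difference per CpG was only 0.0352.

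**Figure D3:**
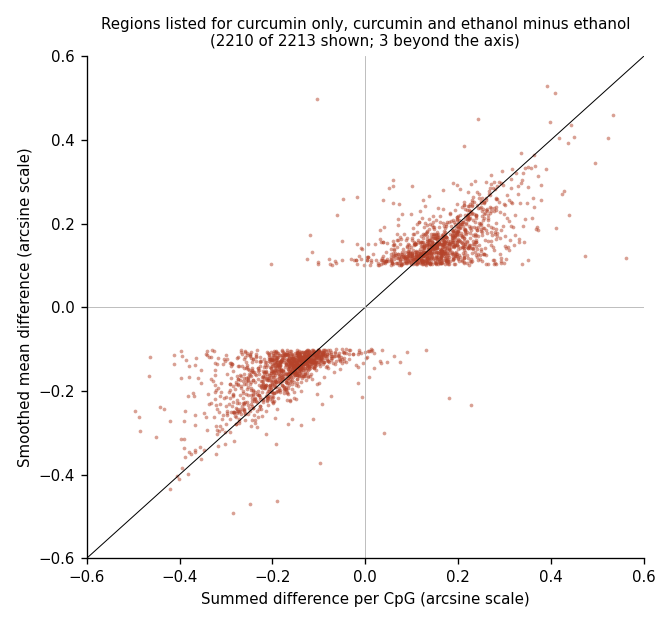
Smoothed mean difference (vertical axis) against summed difference per CpG (horizontal axis), both on the scale taken to be that of arcsine values and both curcumin and ethanol minus ethanol, 1 point per region listed for curcumin only, with the line of equal values. The empty band across the middle is the listing limit of 0.1 on the smoothed value, and the points in the upper left and lower right are regions whose sign differs, 51 in all, 1 of them beyond the axis.

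In 3 regions, singled out after their values were seen, the smoothed value was out of proportion. On GroupUn126, 2 CpGs from 287 to 290 differed by -0.0320 per CpG, 1 lower by 0.0819 and the other higher by 0.0179, and the smoothed value was 4.54. On linkage group 16 (4633077 to 4633248) it was -1.93 at a difference of -0.228 per CpG, and on linkage group 5 (9800237 to 9800286) it was -0.901 at -0.0645. Arcsine transformed fractions differ by at most 1.57, so that 4.54 and -1.93 lie outside the range of the scale assumed here. The cause was not tested. The difference per CpG is the measure used for all other values, except the direction of neighbouring regions in a cluster.

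Being listed for curcumin only need not mean that the CpGs were missing from the other comparison. A position that starts or ends a region in both tables fixes the number of the same CpG in each, and 2101 of the 2213 regions had such positions on both sides. In 2005 (90.6% of the 2213) the numbering ran in step across the region, so that the same CpGs had been counted in both comparisons and the region had no listed region in ethanol against control. In the other 96 the ethanol against control comparison held 1 to 4 CpGs more between those positions. This could not be determined for 112 regions.

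The distance to the nearest region listed for ethanol against control was worked out for these regions only, not for all tested CpGs. Both lists draw on clustered CpGs, so that short distances need not be particular to the regions described here. On the linkage group or scaffold of 14 of the 2213 regions no region was listed for ethanol against control. For the other 2199 the nearest one was 14 to 319599 bp away, with a median of 799 bp and quartiles of 403 and 1598 bp. It was within 100 bp for 49 of the 2199 regions (2.23%), within 1000 bp for 1290 (58.7%) and within 10000 bp for 2114 (96.1%). Distance was also counted in CpGs that entered the comparison, which was possible for the 2005 regions. CpGs that were left out of it are not counted. The median distance was 2 CpGs, and 602 of them (30.0%) had no such CpG between themselves and the nearest ethanol region.

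**Figure D4:**
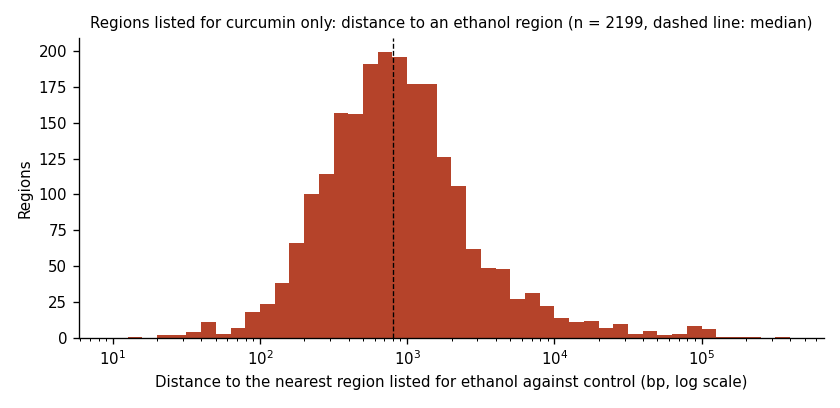
Distance in bp (logarithmic axis) from each of 2199 regions listed for curcumin only to the nearest region listed for ethanol against control, with the number of regions per bin on the vertical axis. The distances form a single broad peak around the median of 799 bp, with a tail beyond 10000 bp that holds 85 regions.

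The 602 regions with no such CpG in between were still separated from the ethanol region by 21 to 19406 bp, with a median of 361.5 bp. Their median absolute difference per CpG was 0.180, and 51.2% were higher in curcumin and ethanol bees. In the 1403 regions with 1 or more CpGs in between the median was 0.163 and 45.3% were higher.

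The closest region was that on linkage group 9 from 4615 to 4663, 14 bp from an ethanol region, with a difference of -0.182 per CpG for curcumin and ethanol against ethanol. Its neighbour, a single CpG, had 0.0871 for ethanol against control. On linkage group 3 from 6297015 to 6297027, 20 bp away, the values were -0.154 and 0.114 in the same order, and on linkage group 2 from 15184194 to 15184299, 21 bp away, they were -0.177 and 0.0554. The same 5 ethanol bees enter both comparisons, and their values are therefore only set side by side. The farthest regions lay on linkage group 3 (8018573 to 8018637, 319599 bp, -0.148 per CpG), linkage group 5 (118573 to 118777, 206668 bp, -0.216 per CpG) and linkage group 4 (8021405 to 8021505, 164117 bp, 0.209 per CpG). These had 4, 2 and 3 CpGs in clusters of 9, 7 and 8.

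Some of the largest differences had ethanol regions nearby. The region of 8 CpGs on linkage group 8 with a sum of 2.74 lay 80 bp and 1 CpG from a single CpG listed for ethanol against control at -0.354. The region of 9 CpGs on linkage group 1 with a sum of 3.21 had an ethanol region of 8 CpGs 330 bp away, at -0.158 per CpG. No CpG lay in between, and the sign was opposite. The same was true of the regions on linkage group 14 with a sum of 2.43 and on linkage group 15 with a sum of 2.63. Their ethanol regions lay 671 and 230 bp away and had negative differences. Other large differences lay next to an ethanol region of the same sign, also with no CpG in between. The region on linkage group 14 at 0.494 per CpG had one 246 bp away at 0.161, that on linkage group 16 at -0.376 per CpG had one 339 bp away at -0.122, and that on linkage group 11 at -0.463 per CpG had one 372 bp away at -0.220. By contrast, the 3 significant CpGs on linkage group 7 lay 8391 bp and 18 CpGs from the nearest ethanol region.

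The limits of the choice can be judged from the regions next to them. Among curcumin regions that share no bp with an ethanol region, there were 1698 of 1 CpG and 856 of 2 CpGs, with median absolute differences of 0.171 and 0.161, and 45 of 9 CpGs and 28 of 10 CpGs, with 0.184 and 0.155. Those of 10 CpGs with the largest sums, just outside the limit, were on linkage group 8 (6621623 to 6622221, sum -3.11) and linkage group 10 (9814865 to 9815485, sum -2.97). The largest sums at 9 CpGs, just inside it, were the 3.21 and -3.30 on linkage group 1 given above. On the side of the overlap, 868 short curcumin regions shared a single bp with an ethanol region and were left out. The first of these in table order was a region of 4 CpGs on linkage group 1 (25692385 to 25692641) at -0.212 per CpG, which starts at a CpG listed for ethanol against control at 0.501. The region of 4 CpGs on linkage group 6 (12155162 to 12155904) at 0.139 starts at a CpG listed at -0.384.

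Within the genome the regions were spread widely. They occurred in 1760 of the 4134 clusters of the table (42.6%), on all 16 linkage groups (2026 regions) and on 79 unplaced scaffolds (187 regions). They formed between 18.3% (linkage group 13) and 28.2% (linkage group 9) of the curcumin regions of a linkage group. The share that was higher in curcumin and ethanol bees ran from 37.6% on linkage group 15 (41 of 109) to 55.0% on linkage group 6 (72 of 131), and the median absolute difference per CpG from 0.157 on linkage group 13 to 0.184 on linkage group 2.

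Cluster size went along with some properties of the regions. The 345 regions in clusters of up to 10 CpGs had a median absolute difference of 0.155 per CpG, 17.1% held an individually significant CpG and in 76.5% all CpGs differed in one direction. In the 690 regions of clusters with 30 or more CpGs these values were 0.177, 23.3% and 54.6%. Longer regions tended to lie in larger clusters, with a median cluster of 18 CpGs for regions of 2 CpGs and 33 for those of 9. Both shares also change with the number of CpGs, for which no adjustment was made.

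Clusters could also hold other kinds of regions. A total of 1480 regions (66.9%) lay in a cluster in which another curcumin region did overlap an ethanol region, and 733 lay in other clusters. The matching share over all curcumin regions was not computed, so that it is not known whether 66.9% is particular to these regions. In 1389 clusters there was 1 region listed for curcumin only, in 306 there were 2, in 52 there were 3, in 9 there were 4 and in 4 there were 5. Of the 371 clusters with 2 or more, 58 had them all higher and 73 all lower in curcumin and ethanol bees, and 240 had both directions. For pairs of neighbouring curcumin regions in a cluster, the direction was taken from the smoothed value. With at least 1 CpG in between, 787 of 2068 pairs that included a region listed for curcumin only (38.1%) had the same direction. Of the 274 pairs with no CpG in between, 0 had the same direction, as a run of CpGs with smoothed values in one direction is listed as 1 region. Shares over all neighbouring pairs of curcumin regions were not computed.

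The 4 clusters with 5 regions listed for curcumin only, chosen after their values were seen, show how the direction of these regions changed along a cluster. On linkage group 2, in a cluster of 50 CpGs, the regions from 14674455 to 14682169 had differences per CpG of 0.208, -0.178, 0.182, 0.235 and -0.199 in order of position. In a cluster of 43 CpGs on linkage group 7, from 12540396 to 12547644, the differences were -0.213, -0.178, 0.133, -0.256 and -0.106. Both clusters on linkage group 8 changed direction as well. The one of 81 CpGs had -0.104, 0.291, 0.0349, -0.180 and -0.0983 between 7046507 and 7053253, and the one of 60 CpGs had -0.157, 0.147, -0.412, 0.179 and -0.316 between 10519410 and 10527319. All 4 stretches were 6746 to 7909 bp long. Each of the 4 clusters held 7 or 8 listed curcumin regions in all, of which 1 or 2 overlapped an ethanol region. Those beyond the 5 are not given here, so that the sequences do not hold every listed region of a cluster.

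**Figure D5:**
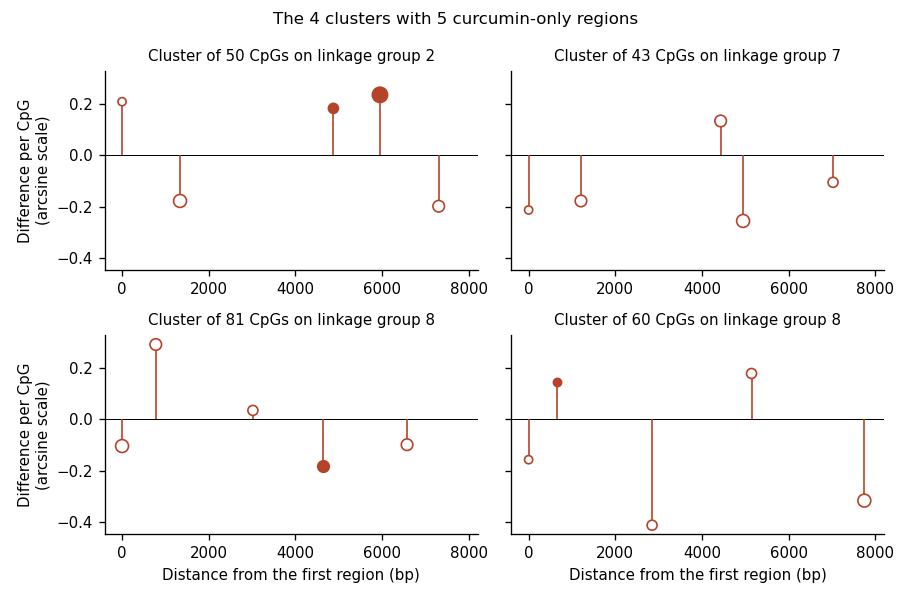
Difference per CpG (vertical axis, arcsine scale, curcumin and ethanol minus ethanol) of the 5 regions in each of 4 clusters, against the distance in bp from the middle of the first region (horizontal axis). The area of a point follows the number of CpGs and filled points hold at least 1 individually significant CpG; each cluster has regions above and below zero within 7909 bp.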

How the data were processed

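Methylation was measured by whole genome bisulfite sequencing in 3 curcumin and ethanol, 5 ethanol and 5 control bees, grouped by the labels. According to the methods and processing notes, the authors trimmed reads with Trimmomatic, aligned them to Amel 4.5 with Bismark 0.16.3 and Bowtie 1.0.0, removed duplicates and used R 3.5.3. CpGs were kept from a mean coverage of 6 upwards, if 3 or more samples showed 10% methylation or above, then arcsine transformed, tested singly and joined into regions with bumphunter.

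The deposited tables hold difference scores of a comparison, made by the authors per region (summed over all or over significant CpGs, and as a mean); columns of single samples number 0. Their region p-values and false discovery rates, from comb-p, were not used. Summed scores ran against the sign of the mean, and were turned and divided by the number of CpGs; direction rests on the sign of that mean. Sharing at least 1 bp counted as overlap. Depth per region is unknown.

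Regions and lists were chosen with earlier results of these data known. Named regions are the 5 largest per direction by difference per CpG and by sum, the 3 largest per direction among 6 to 9 CpGs, the 3 closest to and farthest from an ethanol region, and 2 on each side of the limits. Steps were tested on simulated data. Python 3.11.15, numpy 2.4.6 and pandas 2.3.3 were used, and matplotlib 3.10.9 for figures.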

Additional observations from a re-analysis of the deposited data

How the results depend on the processing

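The 5 main values (the number of regions, the shares that were higher, held a significant CpG or had one direction, and the median absolute difference) were recomputed in 33 ways, and 25 of these stayed close to the value given. The other 8 moved. For the shares and the median, values that stayed close lay inside a 95% range worked out over regions, and those that moved lay outside it. This range treats regions as separate, although some share a cluster, and does not measure the spread between bees. For the number of regions, values from 2005 to 2275 counted as close. When an ethanol region within 1000 bp counted as shared, 923 regions were left, with a median of 0.1603 and 68.36% of one direction. With 3 to 9 CpGs there were 1357 regions, of which 28.37% held a significant CpG and 51.51% had one direction. The median was 0.1613 in clusters where no curcumin region overlapped an ethanol region, and 0.1445 for the smoothed difference. The share that was higher moved little, between 45.61% and 47.38%. Limiting the regions to linkage groups or to those with the same CpGs in both comparisons was chosen after seeing the data. No paired analysis was possible because the tables hold no single samples; for the same reason no bee or cage could be left out, and how far 1 bee or cage decides a difference was not tested.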
